A study of Drosophila melanogaster with 4 samples.

Results

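YHet is the scaffold that holds the assembled heterochromatic sequence of the Y chromosome in FlyBase release 5 of the Drosophila melanogaster genome. It was cut from its first base into 348 windows of 1 kb, the last of them 38 bp long, out of 139719 such windows on the 13 sequences that carry clusters. Every window of YHet was kept, with or without a cluster. The data are ChIP-seq for trimethylated lysine 9 of histone H3 (H3K9me3) in nuclei of wild-type Oregon-R larvae at the 3rd instar, made with an antibody that the labels call a new lot. The 2 ChIP libraries were each set by the authors against an input library of the same number. All 4 libraries come from this strain and stage, and the labels give neither the sex of the larvae nor separate animals behind the replicate numbers. The spread between replicates may therefore be technical.

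H3K9me3 is a mark of constitutive heterochromatin, laid down by methyltransferases such as Su(var)3-9 and Eggless and bound by HP1. In Drosophila the Y chromosome is almost entirely heterochromatic, is carried by males only and is not needed for survival. Its few single-copy genes act in the male germ line, among them kl-2, kl-3 and kl-5, which encode dynein heavy chains of the sperm tail. The gene table used for names, on release 6, lists 24 protein-coding genes on the Y chromosome, and all 12 Y-linked genes looked up by symbol were found there. Release 6 positions cannot be laid over these clusters, so no gene on YHet has a coverage value here. The sex of the larvae is not given, nor how the input entered the calls. Fewer nuclei with a Y chromosome and less of the mark on each Y chromosome therefore cannot be told apart.

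The values are clusters of significant enrichment called by the authors, 1 list per replicate and 1 combined list for the replicate set. Each cluster has a deposited score, the authors' own, whose scale is not stated. The number of reads per library is not stated in what was used here, so the depth behind a cluster is unknown. Over all 13 sequences, clusters covered 16.1% of the bases for replicate 1, 17.5% for replicate 2 and 20.9% for the combined list.

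Most of YHet carried the mark, in blocks of several kilobases separated by stretches without any cluster. Clusters covered 53.1% of its 347038 bases by the list of replicate 1, 65.7% by that of replicate 2 and 73.7% by the combined list. A window was called covered when clusters held at least 50% of its bases. By that rule 184 of 348 windows (52.9%) were covered in replicate 1, where 16.2% of all windows of the 13 sequences were. In replicate 2 there were 233 covered windows (67.0%), beside 17.6% of all windows. The combined list covered 260 windows (74.7%), beside 21.0% of all windows. YHet thus lay well above the level of the 13 sequences together in each list. The mean over the replicates was 59.9% ± 9.96 of windows (SD, n = 2).

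Most windows were either fully covered or empty. Only a window that held a cluster edge could be partly covered, and every cluster was wider than a window. Replicate 1 held 147 fully covered windows, 73 partly covered ones and 128 without a covered base. Replicate 2 held 186, 68 and 94 of these kinds, and the combined list 228, 49 and 71. The same 71 windows had no covered base in any of the 3 lists.

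**Figure D1:**
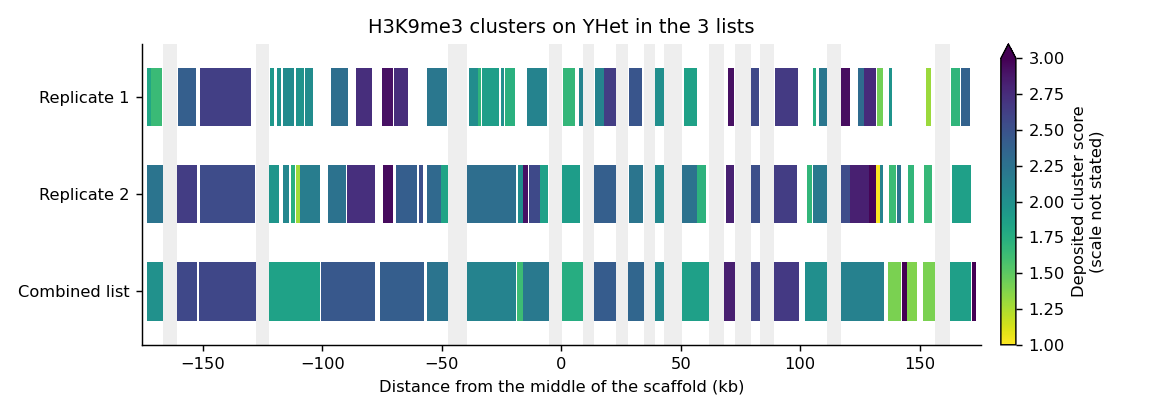
Clusters of H3K9me3 enrichment along YHet in replicate 1, replicate 2 and the combined list, drawn to scale against the distance from the middle of the scaffold in kb. Colour gives the deposited cluster score, and grey bands mark the 13 stretches of at least 3 kb that no list covers, 2 of which lie in the left part and 11 in the other 2 parts when the scaffold is cut into 3 equal parts.

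Replicate 1 had 40 clusters on YHet, between 1304 bp and 21.3 kb wide, with a median of 3819.5 bp. Replicate 2 had 41 clusters between 1373 bp and 23.1 kb wide, with a median of 3851 bp. The combined list had 26 clusters between 1746 bp and 23.5 kb wide, with a median of 8802 bp. The replicates thus had clusters of like number and width, while the combined list had fewer and wider ones. Of the 26 combined clusters, 10 joined at least 2 clusters of replicate 1 and 9 joined at least 2 of replicate 2, with up to 5 clusters under 1 combined cluster in either replicate.

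The widest cluster lay in the left part of the scaffold in every list. It ran from 22205 to 43503 with a score of 2.63 in replicate 1, from 22424 to 45517 with a score of 2.54 in replicate 2 and from 22078 to 45574 with a score of 2.57 in the combined list. Its left edge differed by 219 bp between the replicates and its right edge by 2014 bp. Replicate 2 and the combined list had another wide cluster from 134155 to 154582 (20.4 kb, score 2.28) and from 134268 to 154784 (20.5 kb, score 2.11). In replicate 1 this stretch was split among 5 clusters, which covered 87.2% of the replicate 2 cluster. After the widest cluster, the next in replicate 1 were 262906 to 272763 (9.86 kb, score 2.66), 159140 to 167672 (8.53 kb, score 2.11), 117284 to 125742 (8.46 kb, score 2.21) and 12998 to 20721 (7.72 kb, score 2.40). Each of these 4 was covered at 93.5% or more in replicate 2.

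Coverage was not even along the scaffold. YHet was cut into 3 equal parts, called left, middle and right by position on the scaffold, which says nothing of the centromere. The right part had 39.6% of its bases covered in replicate 1 and 54.5% in the other replicate, against 63.5% and 78.1% in the left part. The middle part lay between them in both replicates, at 56.1% and 64.4%. The difference, right minus left, was -23.9 percentage points in replicate 1 and -23.5 in replicate 2, a mean of -23.7 ± 0.230 (SD, n = 2), and it exceeded the spread between the 2 replicates. The right and middle parts of the combined list were close, at 66.4% and 67.8%, and its left part was covered at 87.0%. An exact two-sided sign-flip test over the replicates gave p = 0.5, and 2 replicates allow no smaller p.

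The median score per covered base was 2.56 in the right part, 2.10 in the middle and 2.63 in the left of replicate 1. In replicate 2 these medians were 2.24, 2.28 and 2.54. The left part had the highest median in both, and in each replicate this value is the score of the widest cluster. The order of the other parts turned between the replicates. Scores thus followed the order of coverage in replicate 2 and not in replicate 1.

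In blocks of 10 kb, coverage ran from 1.39% to 100% in replicate 1 with a median of 56.3%, and from 29.7% to 100% in replicate 2 with a median of 64.1%. The block from 30001 to 40000, inside the widest cluster, was fully covered in all 3 lists. The lowest block of replicate 1, from 230001 to 240000, was covered at 1.39% there, at 41.1% in replicate 2 and at 53.3% in the combined list. The lowest block of replicate 2, from 330001 to 340000, was covered at 29.7% there, at 35.3% in replicate 1 and at 38.6% in the combined list. The lowest place on the scaffold thus depended on the replicate.

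**Figure D2:**
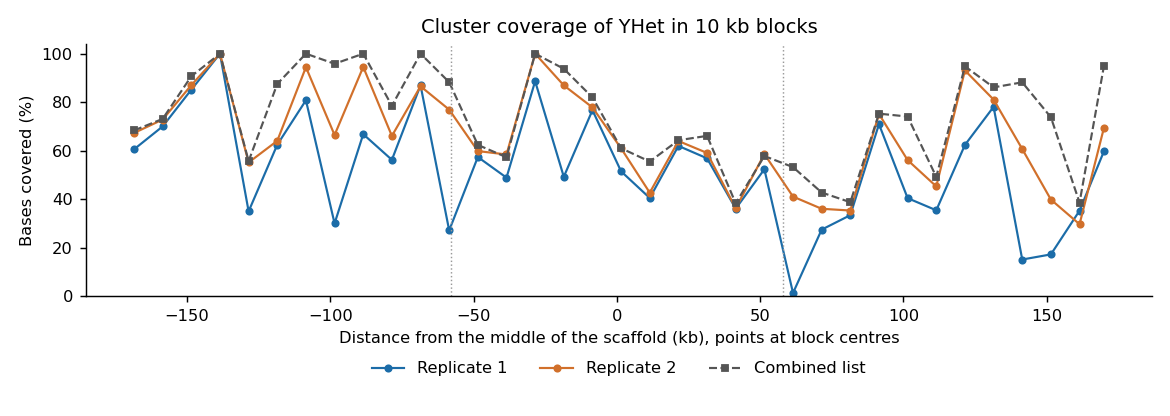
Percent of bases covered by clusters in the 35 blocks of 10 kb along YHet, plotted at block centres against the distance from the middle of the scaffold, with dotted lines between the 3 equal parts. Replicate 2 lies above replicate 1 in 32 blocks and below it in 2, and the widest difference, 49.8 percentage points, is in the block from 110001 to 120000.

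Replicate 2 covered 1.24 times as many bases of YHet as replicate 1, beside 1.09 times over all 13 sequences, 1.12 times on XHet and 1.13 times on U. In the other 5 heterochromatic scaffolds together (2LHet, 2RHet, 3LHet, 3RHet and XHet) the ratio was 1.02. The gain was almost one-sided. Of the bases of YHet, 51.0% were covered in both replicates, 14.7% in replicate 2 only and 2.04% in replicate 1 only. Replicate 2 held 96.2% of the bases covered in replicate 1, and replicate 1 held 77.7% of those covered in replicate 2. The shared bases divided by all bases covered in at least 1 replicate (the Jaccard index) came to 0.753 on YHet, beside 0.833 over all 13 sequences. It was 0.812 on XHet, 0.793 on U and 0.958 on the other 5 scaffolds together. Those 5 scaffolds were covered at 79.9% in replicate 1 and 81.8% in replicate 2, and neither the ratio nor the index was adjusted for the level of coverage. These indices are single values, and the differences between sequences were not tested.

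Counted in windows, 178 were covered in both replicates (51.1% of YHet, beside 15.4% of all windows), 55 in replicate 2 only, 6 in replicate 1 only and 109 in neither. All 239 windows covered in a replicate were also covered in the combined list, which added 21 windows that neither replicate covered and left 88. Since the combined list comes from the libraries of both replicates, it adds no separate evidence.

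Most of the extra coverage of replicate 2 lay in clusters that touched a cluster of replicate 1. Touching means sharing at least 1 base, and how often it would occur by position alone was not tested. Of its 41 clusters, 35 touched a cluster of replicate 1, and these held 36800 of the 50850 bases covered in replicate 2 only. The other 6 clusters, with 14050 bases, had no covered base in replicate 1. Their scores ran from 1.68 to 2.52, inside the range of the remaining YHet clusters of that list. Every cluster of replicate 1 touched replicate 2, and 35 of the 40 were covered there at 90% or more. The windows covered in 1 replicate only lay in short runs. The 6 of replicate 1 were all single windows, and the 55 of replicate 2 formed 26 runs, of which 1 reached 5 windows, from 154001 to 159000. Clusters held 79.1% of that run in replicate 2 and 1.32% in replicate 1, and the combined list covered 87.6% of it. It overlapped the replicate 2 cluster from 157702 to 159740, with a score of 2.91 the third highest on YHet in that list.

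**Figure D3:**
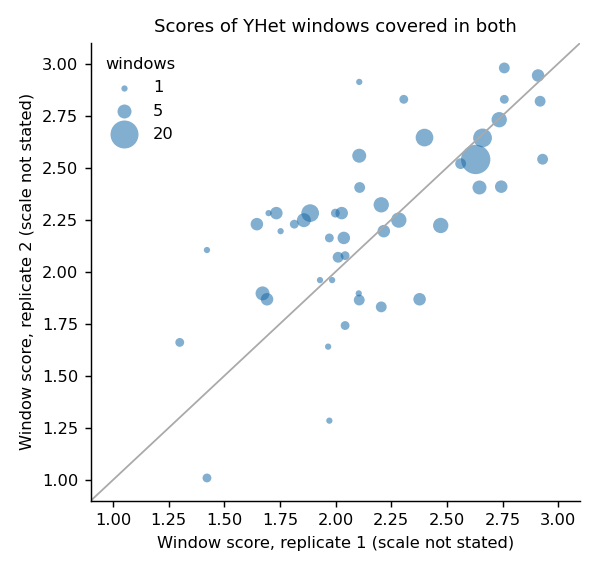
Deposited scores of the clusters that cover most of each window, replicate 2 against replicate 1, for the 178 YHet windows covered in both replicates; the area of a point grows with the number of windows that share the pair of scores, and the line marks equal scores. Points lie on both sides of the line, and the largest point is the widest cluster, at 2.63 in replicate 1 and 2.54 in replicate 2.

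The score of a window was taken from the cluster that held most of it. Over covered windows the median was 2.28 in both replicates, with quartiles of 2.00 and 2.63 in replicate 1 and 2.16 and 2.54 in replicate 2. In the combined list the median was 2.19. Across the 178 windows covered in both replicates the Spearman correlation of the scores was 0.732 and the Pearson correlation 0.719. These windows rest on only 47 pairs of clusters and are not independent of each other, so no p-value is given. Wider clusters tended to score higher in the replicates, with a Spearman correlation of width and score of 0.406 over 40 clusters in replicate 1 and 0.418 over 41 in replicate 2. In the combined list that correlation was 0.00239 over 26 clusters.

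Of the 5 highest-scoring YHet clusters of each replicate, 3 places were common to both lists. The cluster from 98644 to 102957 scored 2.91 in replicate 1, and its counterpart from 98933 to 103158 scored 2.94 in replicate 2. The cluster from 243230 to 245979 scored 2.92 in replicate 1, and its counterpart from 242301 to 245909 scored 2.82 in replicate 2. The cluster from 300284 to 305123 scored 2.76 in replicate 1, where replicate 2 had clusters from 294382 to 302377 (score 2.83) and from 302411 to 305291 (score 2.98). The highest score of replicate 1 was 2.93, from 290582 to 294375, and this stretch was covered at 97.3% in replicate 2.

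The combined list differed at its top. Its highest-scoring cluster on YHet ran from 345293 to the last base of the scaffold, with a score of 4.36, rank 16 of 4060 in the whole list, and no base of it was covered in either replicate. The deposited end lay 396 bp beyond the scaffold and was clipped. Next came the cluster from 316311 to 318296 with a score of 3.24, rank 129, which also had no covered base in either replicate. These were the 2 narrowest clusters of the combined list on YHet, 1746 bp (after clipping) and 1986 bp wide. The other 3 of the top 5, with scores from 2.60 to 2.83, were covered in both replicates at 64.3% or more.

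The bases without a cluster were concentrated in long stretches. The 3 lists together left 90962 bases of YHet uncovered (26.2%), and 13 stretches of at least 3 kb held 85.5% of them, or 22.4% of the scaffold. The shortest of the 13 measured 4445 bp, the median 5698 bp and the longest 7913 bp, so all of them fell between 4 and 8 kb. That range was chosen after the lengths were seen, so that all 13 fall in it is no test. Without the combined list the lengths spread wider. Of the 18 stretches of at least 3 kb that both replicates left uncovered, 13 fell in that range, with lengths from 3100 to 8143 bp. In replicate 1 alone it was 13 of 21, with a longest of 14295 bp. In replicate 2 alone it was 13 of 18, with a longest of 8475 bp. For the stretches shared by all 3 lists, 2 of 4 on XHet, 27 of 66 on the 5 other scaffolds and 144 of 211 on U fell between 4 and 8 kb. The longest there were 10190 bp, 112242 bp and 120529 bp. The 5 other scaffolds hold 8934743 bases and U 10049037, so their longest stretches come from far more sequence than the 347038 bases of YHet. These shares are not given for the replicates alone. Counting all shared stretches of at least 3 kb, YHet had 3.75 per 100 kb, against 1.96 on XHet, 0.739 on the other 5 scaffolds and 2.10 on U. No test was made of these differences. No genome sequence of release 5 was used here, so the share of unsequenced bases or repeats in these stretches was not tested.

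The 5 longest of these shared stretches ran from 126242 to 134154, from 216563 to 224136, from 246091 to 253010, from 235327 to 241811 and from 329749 to 336136. From 168199 rightwards the shared stretches began at 168199, 182698, 196434, 208051, 216563, 235327, 246091 and 256891, and then, farther apart, at 284924 and 329749. Edges were compared between the replicates only for stretches that both left uncovered. Stretches uncovered in 1 replicate only do not enter. Over the 36 edges of the 18 stretches of at least 3 kb that both replicates left uncovered, the median distance between the edge in replicate 1 and in replicate 2 was 430.5 bp. There were 20 edges within 500 bp and 7 that lay more than 2 kb apart, with a largest distance of 8891 bp. The stretches from 315516 to 318665 and from 320952 to 325515 lie in 1 uncovered stretch of replicate 1 and share its edges. The largest distance comes from there and spans replicate 2 clusters, so these are not matching edges. The same holds elsewhere. The distance of 4168 bp left of the stretch from 234308 to 242300 spans the replicate 2 cluster from 230457 to 234307. The distance of 2223 bp right of the stretch from 272764 to 276493 spans the replicate 2 cluster from 276494 to 278665. Neither cluster had a covered base in replicate 1. The longest stretch without a cluster was 14295 bp in replicate 1, from 312061 to 326355, where replicate 2 covered 44.6% and the combined list 78.4%. In replicate 2 it was 8475 bp, from 328553 to 337027, where replicate 1 covered 6.57% and the combined list 24.6%.

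YHet was then set beside XHet, the scaffold of the other sex chromosome, and U, which gathers unplaced sequence, the 2 sequences nearest to it in coverage in both replicates. In the combined list the nearest was 2LHet, with 73.7% covered on YHet and 74.3% on 2LHet. YHet minus XHet was -11.0 percentage points in replicate 1 and -6.14 in replicate 2, a mean of -8.55 ± 3.41 (SD, n = 2). YHet minus U was -8.25 and -3.32, a mean of -5.79 ± 3.49 (SD, n = 2). Against the 5 other scaffolds as 1 set it was -26.9 and -16.1, a mean of -21.5 ± 7.62 (SD, n = 2). An exact two-sided sign-flip test over the replicates gave p = 0.5 for each difference, which is the smallest p that 2 replicates allow.

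In median cluster scores the order against XHet was the other way round. The median cluster score on YHet was 2.07 for replicate 1, 2.23 for replicate 2 and 2.16 for the combined list, against 1.06, 1.23 and 0.985 on XHet. On YHet 33 of 40 clusters (82.5%) of replicate 1 and 39 of 41 (95.1%) of replicate 2 reached the median score of their list, against 4 of 23 (17.4%) and 9 of 20 (45.0%) on XHet. In the combined list all 26 YHet clusters did, against 13 of 19 on XHet. The 4 XHet clusters of replicate 1 that reached it held 47.1% of the covered bases there. Median scores per covered base lay closer, at 2.28 in both replicates on YHet against 1.69 and 1.67 on XHet. The highest single score was on XHet in replicate 1, at 3.23 against 2.93, and in the combined list, at 4.57 against 4.36. In replicate 2 it was on YHet, at 2.98 against 2.58. The median cluster scores on U were higher than on YHet, at 2.43, 2.45 and 2.38, and so were those of the 5 other scaffolds, at 2.27, 2.41 and 2.38. The share of clusters that reached the list median was 91.4% in replicate 1 and 97.7% in replicate 2 on U. On the 5 other scaffolds together it was 87.2% and 94.2%, so the YHet shares stand out only beside XHet. When only clusters at or above the median score of their list were kept, clusters covered 46.3% of YHet in replicate 1 and 64.7% in the other, against 30.2% and 44.7% for XHet. The difference, YHet minus XHet, then turned to 18.1 ± 2.72 percentage points (SD, n = 2). With the same limit in the combined list, 73.7% of YHet and 71.6% of XHet were covered, a difference of only 2.11 percentage points. Against the other sequences the sign did not turn under this limit. Over the replicates YHet minus U was -7.62 ± 5.80 percentage points, and YHet minus the 5 other scaffolds was -23.2 ± 10.3 (SD, n = 2). The score limit is 1.75 in replicate 1 and 1.43 in replicate 2, so the replicates are not compared at like scores.

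**Figure D4:**
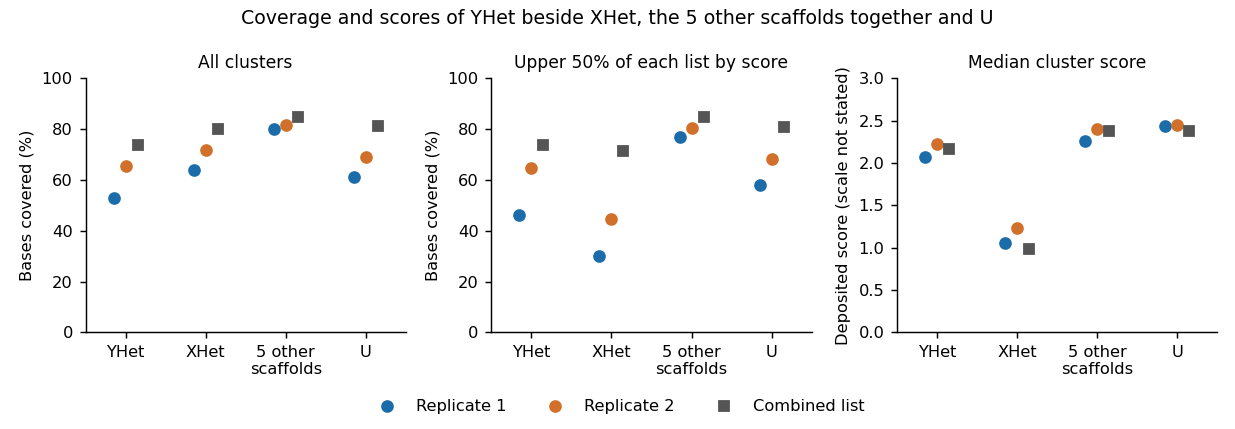
Percent of bases covered with all clusters, the same with clusters at or above the median score of their list, and the median cluster score, for YHet, XHet, the 5 other scaffolds together (XHet included) and U; each point is 1 list. YHet lies lowest with all clusters, whereas with the score limit XHet lies lowest. In each list the median score of YHet, between 2.07 and 2.23, lies below those of U and the 5 other scaffolds and above that of XHet.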

How the data were processed

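H3K9me3 ChIP-seq was made from Oregon-R larval nuclei. The authors deposited clusters of enrichment with 1 score each, on FlyBase release 5 per the file headers. Bowtie 0.12.7 is named per the submitters' processing notes, without its role. How clusters were called and thresholded, how reads from repeats were handled and how replicates were merged is not given in the sources used here. On a repeat-rich scaffold each can change what is called. Percentages are over all bases of the header length, unsequenced ones included.

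From these lists, coverage, 1 kb windows, 10 kb blocks, uncovered stretches and overlaps were computed base by base with Python 3.11.15, numpy 2.4.6 and scipy 1.17.1, and the code was tested on simulated data. The 3 depletion regions of the combined list lie elsewhere than YHet. Named items are the 5 widest and 5 highest-scoring clusters and the 5 longest uncovered stretches of each list, and runs of at least 5 windows covered in 1 replicate; some are given by range. Members, comparisons and alternatives were chosen with earlier results of these data known. No group was compared with another, since no list of the inputs was analysed.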

Additional observations from a re-analysis of the deposited data

How the results depend on the processing

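Of 34 alternatives over 9 results, other than leaving out a replicate, 21 moved a value by less than 1 SD between replicates (for the number of uncovered stretches, by less than 1.5 times), 10 moved it by more, and 1 turned its sign. The other 2 concern the Jaccard index, a single value with no SD to set them against. The combined list gave 73.7% of bases and 74.7% of windows covered on YHet, -11.1 percentage points against the 5 other scaffolds, a median window score of 2.19 and -20.6 percentage points for right minus left. Keeping clusters at or above the median score of their list turned YHet minus XHet to 18.1 percentage points (2.11 in the combined list under the same limit), and gave a median window score of 2.33, -25.3 percentage points for right minus left and a Jaccard index of 0.656. Clusters of at least 2000 bp gave a median window score of 2.30 and an index of 0.690. Windows of 2 kb gave a median score of 2.28, and counting only windows covered at all their bases gave 47.8%, lower by construction. For the remaining changes the cause was not tested. The median window scores of the replicates were so close (SD 0.00177) that small changes exceed 1 SD. With 2 replicates, dropping either one cannot move the mean by 1 SD, so it does not speak to stability. The alternatives for the left and right parts and for uncovered stretches were added after seeing the data. No paired analysis was possible because the inputs had no cluster list here and there was 1 group. Depth is unknown, so an uncovered stretch is not shown to lack the mark.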

Other observations

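Among the 780 pairs of YHet clusters in replicate 1, 2 pairs had scores exactly 1 apart to within 1e-06. In replicate 2 there was no such pair among 820 and in the combined list none among 325. In replicate 2, 1 pair had tied scores: the clusters from 113853 to 115853 and from 253142 to 256678 both scored 2.52, and the first had no covered base in replicate 1 whereas the second was covered there at 93.6%.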
